A study of Bos grunniens and Bos grunniens x Bos taurus with 12 samples.

Results

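Heat shock proteins, DNAJ proteins and CCT chaperonin subunits were examined in Ribo-seq libraries of yak and cattle–yak testis. A gene was included when its symbol in the deposited tables began with HSPA, HSPB, HSPD, HSPE, HSPH, HSP90, DNAJA, DNAJB, DNAJC or CCT followed by a number. The rule found 62 of 20965 genes, of which 13662 had a symbol. They comprised 11 HSPA, 7 HSPB, 2 HSPD, HSPE or HSPH, 3 HSP90, 3 DNAJA, 9 DNAJB, 20 DNAJC and 7 CCT genes. The pattern also caught *HSPBP1* and *HSPBAP1*, which are named as partners of heat shock proteins, *HSPB11*, a component of cilia, and *CCT8L2*, a gene related to a CCT subunit. A further 22 genes had no symbol but a description of such a chaperone. They were not counted as members and were chosen after their values had been seen. Only some of them are described, mainly ones that differed between groups or that complete a pair or a complex.

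Heat shock proteins hold unfolded chains and help them to fold. HSP70 proteins (HSPA genes) bind short stretches of a chain, DNAJ proteins bring the chains to them and start their ATP cycle, and nucleotide exchange factors such as HSP110 proteins reset it. HSP90 completes the folding of kinases and receptors, CCT is a double ring that folds actin and tubulin, and small heat shock proteins (HSPB genes) keep chains from aggregating. The testis is known for its own copies of several of these chaperones, among them the meiotic HSP70 *HSPA2*, which appear when germ cells enter meiosis or become spermatids.

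Ribo-seq sequences the mRNA fragments that ribosomes protect, so a value reads as a translation level. Testes came from male yak (*Bos grunniens*) of 6 months, 18 months and 4 years and from male cattle–yak, with 3 libraries in each of the 4 groups, each taken as 1 animal. The labels call the 3 yak ages juvenile, pubertal and sexually mature and give 4 years for the cattle–yak too. Cattle–yak were crosses of Jersey bulls with Gannan yak cows, and their males are sterile. The labels give castration for every animal, whereas the study's methods give euthanasia for the yak and castration for the cattle–yak, so the way of collection may have differed between these groups.

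The total was 16304058 to 52616039 counts per library, and the members took 1.80 to 2.87% of it. Depth went with group, at 16304058 to 17862516 counts in the 4-year yak and 38437889 to 52616039 in cattle–yak. The paper also reports a lower alignment rate, a smaller share of footprints in coding sequence and a longer main footprint length for yak than for cattle–yak. The part of these technical differences in the results was not tested. Over 10 spermatid markers the summed level was 12200 to 15310 FPKM in the 4-year yak, 29.7 to 31.8 at 6 months and 84.7 to 174 in cattle–yak, and markers of Sertoli and Leydig cells were present in every library. FPKM is the fragment count relative to gene length and library total. Among the 18-month yak, replicate 2 stood apart, with 8686 FPKM of spermatid markers against 32.6 and 47.3 in replicates 1 and 3. Results for this age are therefore given with and without it. Summed markers of spermatogonia, Sertoli cells, Leydig cells and peritubular myoid cells were each higher in all 3 cattle–yak libraries than in any 4-year yak library, and the 2 blood markers with a symbol were at or near 0 in all 12 libraries. In bulk tissue, fewer cells of a type and less RNA per cell cannot be told apart.

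Cattle–yak were compared with the 4-year yak to see which chaperones differ between a sterile and a fertile adult testis. Using edgeR, genes with an adjusted p below 0.05 and at least a 2-fold change were counted as differentially translated genes (DTGs). Of the 62 members, 13 were higher and 16 were lower in cattle–yak. Over all 16498 genes tested, 17.1% were higher and 27.0% were lower, so the share of members called lower lay close to that of all genes. The median log2 fold change was -0.30 over the members and -0.00 over all genes tested. DESeq2, scaling by library size and scaling by RLE each called the same 29 members in the same direction. The 16 that fell included 7 chaperones of germ cells, from a list drawn up with earlier results of these data known. Among the 16, *DNAJB7*, *DNAJB13*, *DNAJC5G* and *CCT8L2* passed the count filter applied before testing only through the 4-year yak. Among those that rose, *HSPB7* passed it only through cattle–yak. The direction of these genes was thereby fixed. The 13 that rose were *HSPA8*, *HSPA4*, *HSP90AB1* and *DNAJA2* of the cytosol, *HSPD1*, *HSPA9*, *DNAJC11*, *DNAJC19* and *DNAJC30* of the mitochondrion, the small heat shock proteins *HSPB7* and *HSPB8*, *HSPA12A* and *DNAJC5*.

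**Figure D1:**
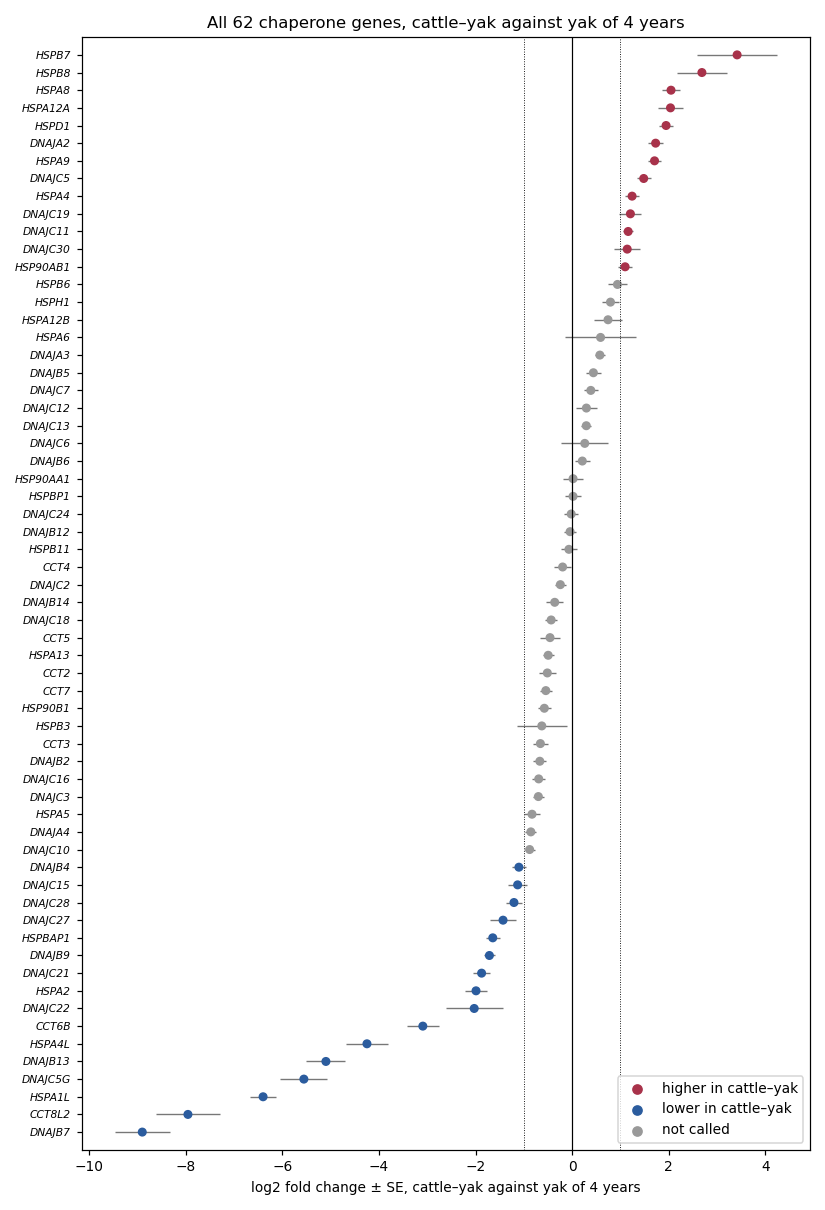
The log2 fold change of each of the 62 members in cattle–yak against 4-year yak is plotted with its SE, sorted from the highest to the lowest, and dotted lines mark a 2-fold change. The lowest points are *DNAJB7* at -8.90 and *CCT8L2* at -7.96, and the highest is *HSPB7* at 3.42. Each of these genes passed the count filter only through its higher group, which fixed its direction.

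The 4-year yak were compared with the 6-month yak to see what changed with maturation. Of 62 members, 17 rose and 12 fell with age, while 31.0% of 16133 genes rose and 24.7% fell. The median log2 fold change was 0.13 over the members and 0.08 over all genes. This split depended on scaling. With library size alone the median of all genes shifted up by 0.56 on the log2 scale, and 24 members rose and 4 fell, beside 40.9% and 15.5% of all genes. Changes against the 6-month yak are therefore given relative to the bulk of genes, after TMM scaling, unless said otherwise. In cattle–yak against the 6-month yak, 58 members could be tested, of which 11 were higher and 7 lower, beside 18.1% and 19.7% of 15571 genes. Library size alone shifted the median of all genes up by 0.53 and gave 23 higher and 2 lower, beside 31.3% and 12% of genes. The members not tested there and at 18 against 6 months were *CCT8L2*, *DNAJB13*, *DNAJB7* and *DNAJC5G*, whose counts were too low in both groups or in all but 1 library.

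The list of chaperones known from germ cells was drawn up with earlier results of these data known, so its common course is a description. Of the 8 with a symbol, *HSPA2*, *HSPA4L*, *HSPA1L*, *CCT6B*, *DNAJB7*, *DNAJB13* and *DNAJC5G* were higher in the 4-year than in the 6-month yak, and the same 7 genes were lower in cattle–yak than in the 4-year yak. *HSP90AA1* passed neither test. The median log2 fold change of the 8 was 6.83 with age and -4.67 in cattle–yak, beside 0.08 and -0.00 over all genes. Over all genes 31.0% rose with age and 27.0% were lower in cattle–yak. *DNAJB7*, *DNAJB13* and *DNAJC5G* passed the count filter only through the 4-year yak. Their direction in both comparisons, which also enters these medians, was thereby fixed and lends no support. These comparisons share the 4-year libraries. In cattle–yak against 6-month yak, 4 of the 5 that could be tested were higher, beside 18.1% of all genes tested. These were *HSPA4L*, *CCT6B*, *HSPA2* and *HSPA1L*.

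*HSPA2* (ENSBGRG00000013924) encodes the HSP70 of meiotic and later germ cells, which is needed for the meiotic divisions in males. Its level was 17.9, 23.1 and 18.7 FPKM at 6 months, 58.8, 296 and 29.6 at 18 months, 461, 430 and 403 at 4 years, and 147, 81.9 and 92.7 in cattle–yak. The cattle–yak libraries lay between those of the 6-month and the 4-year yak, with no overlap on either side. Compared with 4-year yak the log2 fold change was -1.99 ± 0.24 (SE; adjusted p = 0.000142, edgeR), and compared with 6-month yak it was 1.90 ± 0.23 (adjusted p = 0.000257, edgeR).

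*HSPA4L* (ENSBGRG00000009049) encodes a testis-enriched protein of the HSP110 group, which acts as an exchange factor for HSP70. It stood at 0.74, 1.33 and 0.96 FPKM at 6 months, at 3.44, 221 and 9.0 at 18 months, at 299, 272 and 357 at 4 years, and at 27.7, 10.7 and 9.53 in cattle–yak. All cattle–yak libraries were below all 4-year yak libraries and above all 6-month libraries, and cattle–yak replicate 1 was the highest of its group. The log2 fold change was -4.25 ± 0.44 against 4-year yak (adjusted p = 6.59e-05, edgeR) and 3.45 ± 0.45 against 6-month yak (adjusted p = 0.000354, edgeR).

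*HSPA1L* (ENSBGRG00000017307) encodes the spermatid HSP70. Its values were 0.61, 0.92 and 0.74 FPKM at 6 months, 1.35, 160 and 1.49 at 18 months, 228, 179 and 220 at 4 years, and 3.05, 1.74 and 2.54 in cattle–yak. Levels in cattle–yak were thus close to those of the immature yak and 84.4-fold below those of the 4-year yak, which was -6.40 ± 0.26 on the log2 scale (adjusted p = 7.44e-07, edgeR). Relative to the 6-month yak the log2 fold change was 1.16 ± 0.31 (adjusted p = 0.0134, edgeR), and this call was lost without cattle–yak replicate 1, at 0.97 (adjusted p = 0.0588, edgeR).

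**Figure D2:**
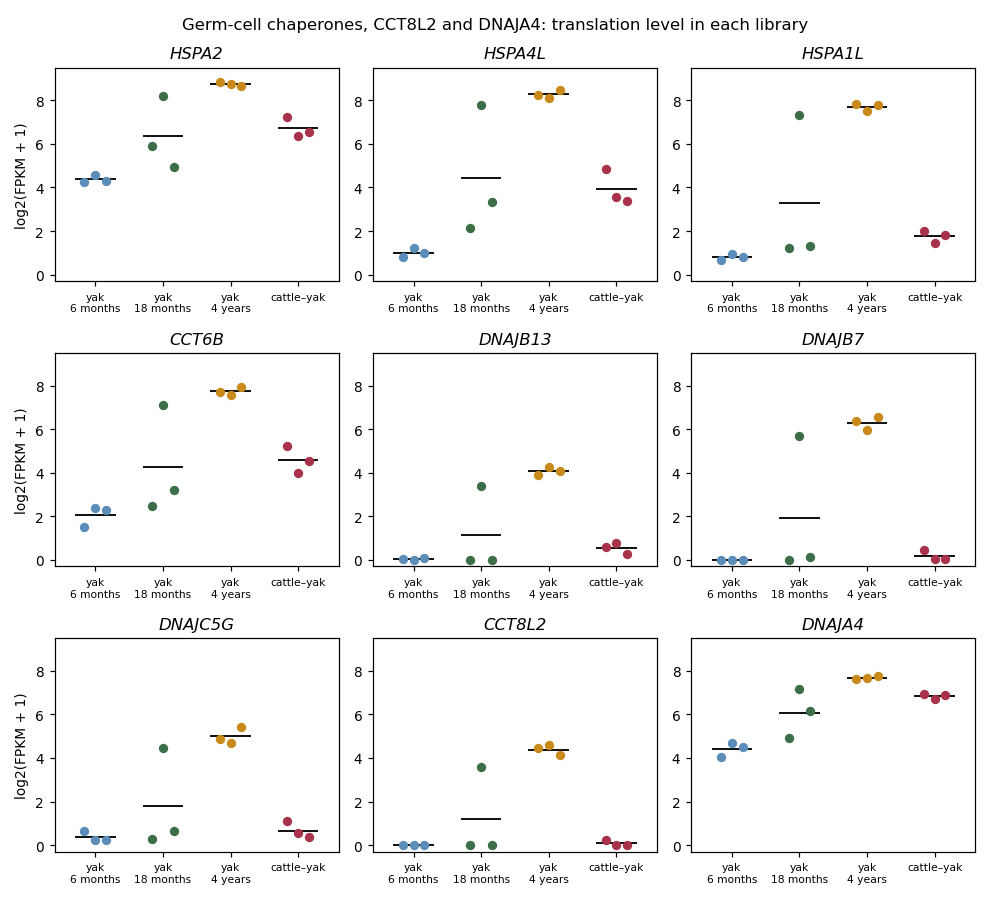
Levels of 9 chaperones on the scale log2(FPKM + 1) are shown, with a point for each library and a line at the group mean. In 7 germ-cell chaperones and *CCT8L2* the 3 libraries of the 4-year yak lie at the top, and the 1 high point at 18 months is replicate 2. *DNAJA4* is less reduced in cattle–yak, at 104 to 121 FPKM.

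The germ-cell list also held 3 DNAJ genes of spermatids, whose levels in cattle–yak and 6-month yak lay near the lower limit of detection. *DNAJB7* (ENSBGRG00000006284) had no count in any 6-month library and 1389, 1034 and 1434 counts at 4 years, which made it at least 506-fold higher at 4 years when 3 counts per library were taken as the floor. In cattle–yak it had 18, 1 and 1 counts, so that replicate 1 held nearly all of them, and the log2 fold change against 4-year yak was -8.90 ± 0.57 (adjusted p = 5.1e-06, edgeR). *DNAJB13* (ENSBGRG00000004694) encodes a protein of the sperm flagellum.

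*DNAJB13* had 1, 0 and 2 counts at 6 months, 244, 321 and 257 at 4 years and 26, 26 and 7 in cattle–yak. The summed counts, scaled to library size after TMM, were 336 times higher at 4 years than at 6 months, with an exact 95% counting interval of 115 to 1634. Against the 4-year yak, cattle–yak were lower by a log2 fold change of -5.10 ± 0.41 (adjusted p = 1.47e-05, edgeR). *DNAJC5G* (ENSBGRG00000010350), a testis relative of the vesicle cochaperone *DNAJC5*, had 0.56, 0.19 and 0.18 FPKM at 6 months, 28.3, 24.7 and 41.7 at 4 years and 1.13, 0.47 and 0.28 in cattle–yak. The groups of 4-year yak and cattle–yak did not overlap, and the log2 fold change was -5.56 ± 0.48 (adjusted p = 2.44e-05, edgeR).

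*CCT8L2* (ENSBGRG00000008514) was not on the germ-cell list and followed the same course. It too passed the count filter only through the 4-year yak, which fixed its direction. It had 1, 1 and 0 counts at 6 months, 606, 666 and 444 at 4 years and 16, 1 and 0 in cattle–yak. Its summed counts were 1053 times higher at 4 years than at 6 months after scaling, with a 95% counting interval of 291 to 8704, and in cattle–yak it was lower by a log2 fold change of -7.96 ± 0.66 (adjusted p = 1.83e-05, edgeR). Intervals and floors of this kind cover counting error only. The genes without a symbol that are described as DNAJB3 and DNAJB8 (dnaJ homolog subfamily B member 3 and dnaJ homolog subfamily B member 8) were the most translated DNAJ genes of this kind. The first had 283, 245 and 237 FPKM at 4 years and 1.59, 0.58 and 0.07 in cattle–yak. The second had 497, 424 and 342 at 4 years and 2.97, 0.68 and 0.34 in cattle–yak. Both were highest in replicate 1 of the cattle–yak, as *HSPA4L* and *DNAJB7* were.

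Of 5 general HSP70, HSP110 and HSP90 genes of the cytosol with a symbol, *HSPA8*, *HSPA4* and *HSP90AB1* were higher in cattle–yak than in the 4-year yak, and *HSPH1* and *HSPA6* were not called. The median log2 fold change was 1.10 beside -0.00 over all genes, of which 17.1% were called higher. *HSP90AA1* was counted with the germ-cell chaperones. *HSPA8* (ENSBGRG00000014719), the constitutive HSP70 of all cells, had 393, 656 and 655 FPKM at 6 months, 595, 443 and 661 at 18 months, 325, 291 and 259 at 4 years, and 1383, 994 and 1214 in cattle–yak. All cattle–yak libraries were above all yak libraries of any age. The log2 fold change was 2.05 ± 0.18 against 4-year yak (adjusted p = 2.43e-05, edgeR), while against 6-month yak it was 0.56 ± 0.21 (adjusted p = 0.0533, edgeR) and with library size alone 1.08, which passed the test. *HSPA8* was lower at 4 years than at 6 months by a log2 fold change of -1.51 ± 0.22 (adjusted p = 0.000249, edgeR), and with library size alone by -0.96, which missed the 2-fold threshold.

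*HSPA4* (ENSBGRG00000000648), the general relative of *HSPA4L*, had 92.7, 94.0 and 93.3 FPKM in the 4-year yak and 257, 189 and 209 in cattle–yak. It was 1.24 ± 0.15 higher on the log2 scale in cattle–yak (adjusted p = 0.000152, edgeR). *HSPH1*, the heat-inducible HSP110, was also above all 4-year yak libraries, at 77.6, 48.6 and 63.1 against 32.7, 37.8 and 40.2 FPKM, but its log2 fold change of 0.79 ± 0.18 was under the 2-fold threshold (adjusted p = 0.00514, edgeR). *HSPA6*, a strictly stress-induced HSP70, was at most 3.43 FPKM in any library, and its cattle–yak and yak levels overlapped.

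The gene without a symbol described as heat shock 70 kDa protein 1A (ENSBGRG00000017349), the main heat-inducible HSP70, contrasted with *HSPA1L*. It had 94.5, 229 and 230 FPKM at 6 months, 60.0, 66.9 and 41.2 at 4 years, and 304, 182 and 276 in cattle–yak. It was lower in every 4-year yak library than in any library of either other group, and cattle–yak exceeded the 4-year yak on the log2 scale by 2.19 ± 0.25 (adjusted p = 0.000118, edgeR). RSEM shares out reads that fit several genes, and *HSPA1L*, *HSPA2*, *HSPA8* and HSPA1A are similar in sequence, so their separate levels carry an uncertainty that the counts do not show.

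The general members that rose in cattle–yak did so beside other values. Summed levels of 8 immediate early genes, which respond to tissue handling, were 135 to 232 FPKM in cattle–yak and 43.4 to 53.8 in the 4-year yak. By the test 5 of the 8 were higher, beside 17.1% of all genes tested. *FOS* stood at 65.6, 9.79 and 9.23 FPKM in cattle–yak and at 2.17, 3.25 and 2.23 in the 4-year yak. Summed markers of peritubular myoid cells were 1313 to 2009 against 363 to 413 FPKM, those of Sertoli cells 1128 to 1384 against 605 to 836, and those of Leydig cells 672 to 1134 against 86.3 to 218. All 6 myoid, 3 of 5 Sertoli, all 3 Leydig and 4 of 7 spermatogonial markers were higher in cattle–yak, beside 17.1% of all genes tested. Of the spermatid markers 10 of 10 and of the spermatocyte markers 3 of 8 were lower, beside 27.0% of all genes. The spermatid markers *ACRV1*, *CRISP2*, *ODF1*, *SUN5*, *TNP1* and *TXNDC8* passed the count filter only through the 4-year yak, which fixed their direction. The part of these differences in the levels of the chaperones was not tested.

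**Figure D3:**
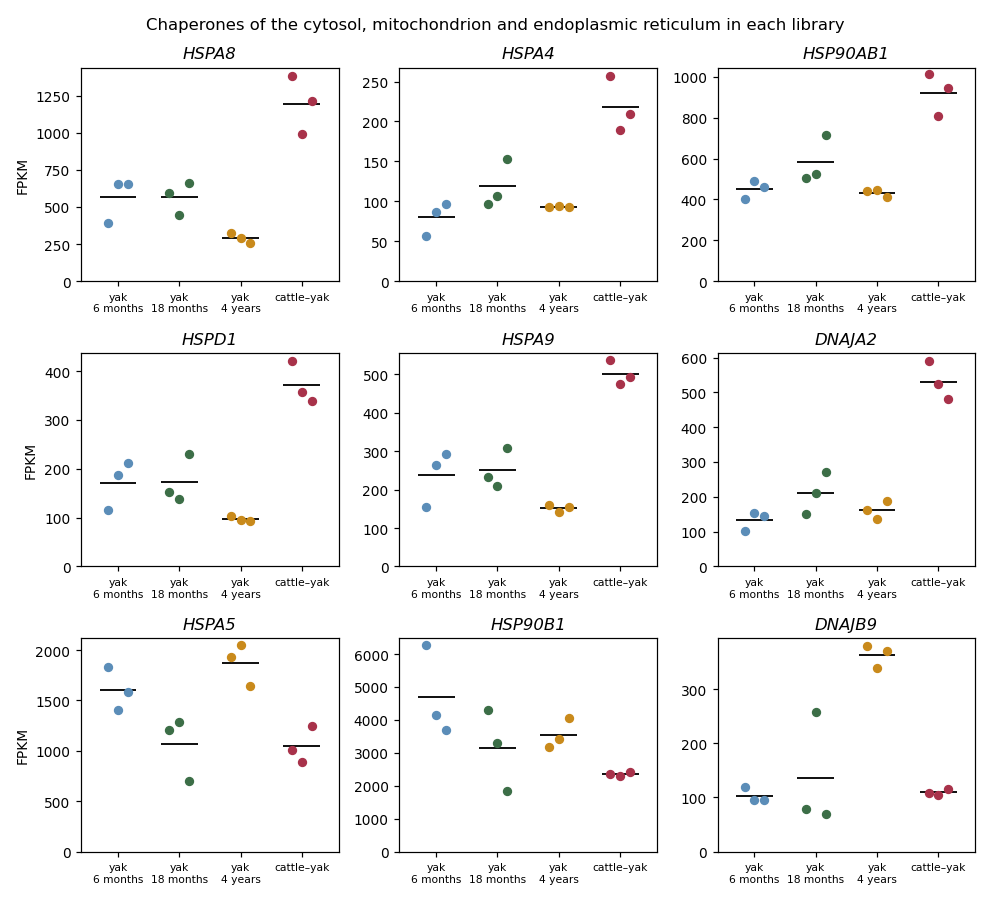
FPKM of 9 chaperones of the cytosol, mitochondrion and endoplasmic reticulum is shown for each library, with a line at the group mean. *HSPA8*, *HSPA4*, *HSP90AB1*, *HSPD1*, *HSPA9* and *DNAJA2* are highest in the 3 cattle–yak libraries, and *DNAJB9* is highest in the 4-year yak.

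Both cytosolic HSP90 genes were among the 10 most translated members, with means over all 12 libraries of 1716 FPKM for *HSP90AA1* and 598 for *HSP90AB1*. *HSP90AA1*, the inducible form and the one needed for spermatogenesis in mice, had 2106, 1860 and 2042 FPKM in the 4-year yak and 2574, 1494 and 1959 in cattle–yak. These groups overlapped, and the log2 fold change was 0.02 ± 0.21 (adjusted p = 0.944, edgeR). *HSP90AB1*, the constitutive form, had 440, 449 and 412 FPKM in the 4-year yak and 1016, 811 and 945 in cattle–yak, without overlap, and was 1.10 ± 0.14 higher on the log2 scale (adjusted p = 0.000189, edgeR).

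Pairs of a germ-cell and a general chaperone were compared by the share of the first in their summed FPKM, a ratio within each library that no scaling between libraries can change. *HSPA4L* made up 76.7 ± 2.49% (SD, n = 3) of *HSPA4L* and *HSPA4* at 4 years, 1.26 ± 0.26% at 6 months and 6.47 ± 2.85% in cattle–yak. *HSPA2* made up 59.7 ± 1.15% of *HSPA2* and *HSPA8* at 4 years and 8.11 ± 1.34% in cattle–yak. For *HSPA1L* with *HSPA8* the shares were 41.7 ± 4.02% and 0.20 ± 0.02%.

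In these 3 pairs the general copy made up the larger part in every library of cattle–yak and 6-month yak. *HSP90AA1* made up 82.1 ± 1.40% of both cytosolic HSP90 genes at 4 years and 68.0 ± 3.48% in cattle–yak, without overlap, although its own level overlapped. The shares of all 5 pairs were lower in each cattle–yak library than in each 4-year yak library. With 3 against 3 libraries the exact two-sided permutation test gave p = 0.1 for each of these 5 differences, the smallest p it allows, and 0.114 after adjustment over 25 tests, so the design could not reach 0.05.

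**Figure D4:**
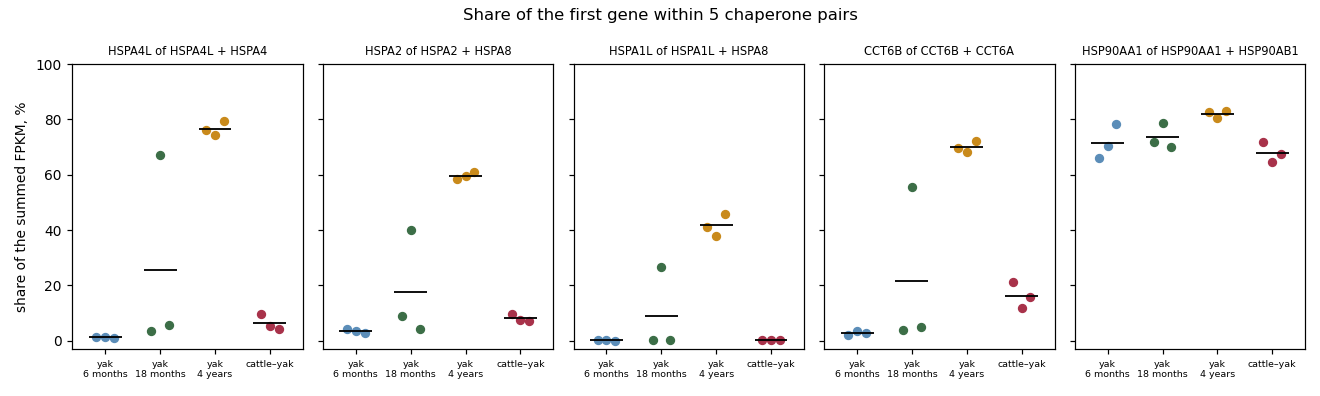
The share of the first gene in the summed FPKM of each of 5 pairs is plotted in percent, with a point for each library and a line at the group mean. The first 4 pairs fall from means of 41.7 to 76.7% in the 4-year yak to 0.20 to 16.2% in cattle–yak, and *HSP90AA1* from 82.1 to 68.0%.

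The CCT ring is built from 8 different subunits, of which the zeta position can be filled by CCT6A or, in the testis, by CCT6B. *CCT6B* (ENSBGRG00000020692) had 1.87, 4.19 and 3.96 FPKM at 6 months, 4.59, 138 and 8.09 at 18 months, 208, 187 and 244 at 4 years, and 36.9, 14.6 and 22.5 in cattle–yak. Cattle–yak were below all 4-year and above all 6-month libraries, with log2 fold changes of -3.09 ± 0.33 (adjusted p = 8.01e-05, edgeR) and 2.37 ± 0.37 (adjusted p = 0.000949, edgeR). *CCT6B* made up 70.1 ± 1.99% (SD, n = 3) of both zeta genes at 4 years and 16.2 ± 4.74% in cattle–yak.

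The other ring members with a symbol were *CCT2*, *CCT3*, *CCT4*, *CCT5* and *CCT7*. All 5 had higher FPKM in each 4-year than in each 6-month library, as had 37 of all 62 members. FPKM lacks TMM scaling, and the share of all genes separated in this way was not counted. Ratios of the means ran from 1.56 for *CCT7* to 3.58 for *CCT2*. Only *CCT2* passed the test after TMM scaling, rising by 1.28 ± 0.17 on the log2 scale (adjusted p = 0.000172, edgeR), beside 31.0% of all genes. With library size alone *CCT3* and *CCT5* passed as well. In cattle–yak against 4-year yak all 5 had log2 fold changes below 0, from -0.66 to -0.20, none reached 2-fold, and *CCT4* overlapped between the groups. TCP1, the alpha subunit, had a log2 fold change of -0.41 ± 0.15 and the theta gene without a symbol (T-complex protein 1 subunit theta, ENSBGRG00000000078) of 0.27 ± 0.15, neither of which was called.

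Since *CCT6A* has no symbol here (T-complex protein 1 subunit zeta, ENSBGRG00000016594), both zeta genes were added up and set against the mean of the other 7 subunits, including TCP1 and theta. This ratio was formed after the values had been seen and is given as a description. In the 9 yak libraries the summed zeta level was 0.744 to 0.986 of that mean, at every age. In cattle–yak it was 0.592, 0.588 and 0.608, below all yak libraries.

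*CCT6A* alone had low ratios in the mature yak, of 0.267, 0.287 and 0.274, which rose to 0.886, 0.903 and 0.986 with *CCT6B* added. At 6 months *CCT6A* alone had ratios of 0.831, 0.798 and 0.890. In cattle–yak *CCT6A* had ratios of 0.467, 0.520 and 0.513. The 2 zeta genes are similar in sequence, so reads may be shared between them, which their sum does not depend on.

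**Figure D5:**
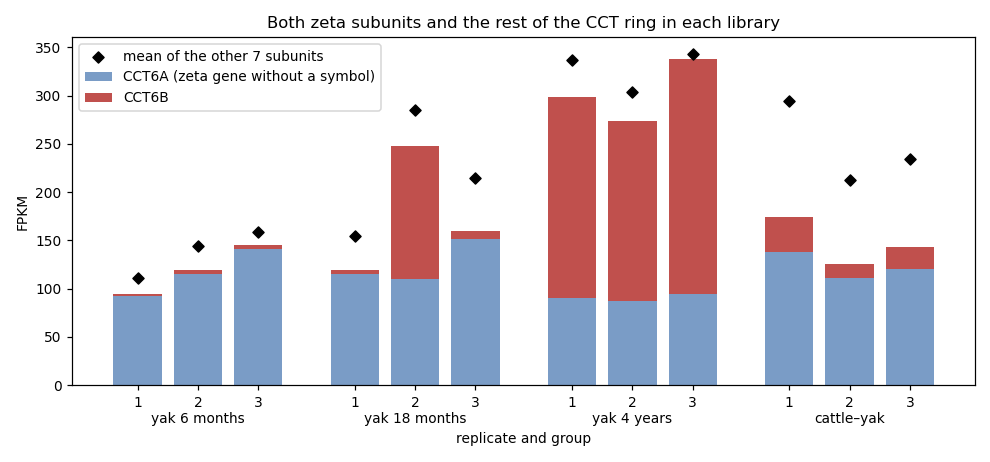
Stacked bars give the FPKM of *CCT6A* and *CCT6B* in each library, and diamonds give the mean FPKM of the other 7 CCT subunits. In yak the bars reach 0.744 to 0.986 of the diamonds, and in cattle–yak 0.588 to 0.608.

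Mitochondrial chaperones rose in cattle–yak more often than they fell. Of 8 with a symbol, 5 were higher and 2 lower than in the 4-year yak, beside 17.1% and 27.0% of all genes tested. Those higher were *HSPD1*, *HSPA9*, *DNAJC19*, *DNAJC11* and *DNAJC30*, and those lower were *DNAJC15* and *DNAJC28*. The median log2 fold change of the 8 was 1.15 beside -0.00 over all genes. *HSPD1* (ENSBGRG00000000539) is HSP60, the folding chamber of the matrix. It had 115, 188 and 212 FPKM at 6 months, 104, 95.6 and 93.1 at 4 years, and 421, 357 and 338 in cattle–yak. Every cattle–yak library lay above every yak library of 6 months or 4 years, and the log2 fold change against 4-year yak was 1.94 ± 0.14 (adjusted p = 1.03e-05, edgeR).

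HSP10, the lid of HSP60, is encoded next to *HSPD1* in the RefSeq annotation of the yak (*HSPE1*). Its gene has no symbol in these tables (10 kDa heat shock protein, mitochondrial, ENSBGRG00000000521). It had 278, 331 and 272 FPKM at 4 years and 560, 505 and 541 in cattle–yak, again without overlap, with a log2 fold change of 0.92 ± 0.11 that was under the 2-fold threshold (adjusted p = 0.000136, edgeR). *HSPA9* (ENSBGRG00000004236), the matrix HSP70 that pulls in imported proteins, had 159, 141 and 156 FPKM at 4 years and 536, 475 and 494 in cattle–yak, which was 1.71 ± 0.13 higher on the log2 scale (adjusted p = 1.12e-05, edgeR).

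*DNAJC19*, *DNAJC11* and *DNAJC30*, which belong to the inner membrane or its organization, had log2 fold changes of 1.21, 1.16 and 1.14. The last of these was not called without 4-year yak replicate 3, at 0.94. *DNAJC15*, a relative of *DNAJC19* at the import channel, went the other way, with 27.3, 26.4 and 23.9 FPKM at 4 years and 12.3, 13.0 and 9.94 in cattle–yak. The log2 fold change was -1.13 ± 0.19 (adjusted p = 0.00112, edgeR) and -0.99 without 4-year yak replicate 1, and it was also lower in the 4-year than in the 6-month yak, by -1.12 ± 0.20 (adjusted p = 0.000757, edgeR). *DNAJC28* had a log2 fold change of -1.21. *DNAJA3*, a partner of *HSPA9*, was above all 4-year yak libraries, with a log2 fold change of 0.57 that was not called. With maturation *HSPD1*, *HSPA9*, *DNAJC19* and *DNAJC15* fell, with log2 fold changes of -1.37, -1.18, -1.15 and -1.12, and none of the 4 was called with library size alone.

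In the endoplasmic reticulum all 9 listed members with a symbol had log2 fold changes below 0 in cattle–yak against 4-year yak. Their median was -0.69, beside -0.00 over all genes. While 27.0% of all genes tested were called lower, only 1 of the 9 passed the test. This was *DNAJB9* (ENSBGRG00000001118), a DNAJ protein of the lumen that is induced by unfolded protein. It had 119, 96.0 and 95.3 FPKM at 6 months, 379, 339 and 371 at 4 years, and 109, 104 and 117 in cattle–yak. The 4-year libraries lay above all others, and the log2 fold change in cattle–yak was -1.71 ± 0.11 (adjusted p = 6.03e-06, edgeR).

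This compartment held the members ranked 1 and 3 by mean FPKM over all 12 libraries, *HSP90B1* and *HSPA5*, with the cytosolic *HSP90AA1* between them. *HSP90B1*, the HSP90 of the lumen, ranked 21 among all genes by mean FPKM, with 3164, 3410 and 4063 FPKM at 4 years and 2365, 2290 and 2422 in cattle–yak. Its groups did not overlap, but the log2 fold change of -0.58 ± 0.14 was under 2-fold (adjusted p = 0.00608, edgeR). *HSPA5* (BiP), the HSP70 of the lumen, had 1929, 2051 and 1643 FPKM at 4 years and 1013, 889 and 1242 in cattle–yak, a difference of -0.83 ± 0.16 on the log2 scale (adjusted p = 0.00233, edgeR).

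*DNAJC10*, *DNAJC3*, *DNAJC16* and *HSPA13* were likewise below all 4-year yak libraries, with log2 fold changes of -0.88, -0.70, -0.69 and -0.50, whereas *DNAJB12* and *DNAJB14* of the outer face overlapped between the groups. Among genes without a symbol, that for DNAJB11 (dnaJ homolog subfamily B member 11 precursor), a partner of BiP, had 288, 297 and 289 FPKM at 4 years and 129, 111 and 130 in cattle–yak, which was -1.23 ± 0.12 on the log2 scale (adjusted p = 4.07e-05, edgeR). With age *DNAJB9* and *DNAJC16* rose, by 1.23 and 1.09. *DNAJC16* was at 0.93 without 6-month replicate 3. *HSP90B1* fell by 1.01 on the log2 scale, with overlap between the ages, and this call was lost without 6-month replicate 1, at -0.65, and without 4-year replicate 1 or 2, at -0.96 and -0.97. Cattle–yak were lower than 6-month yak in *HSP90B1* and *HSPA5*, by log2 fold changes of -1.56 and -1.17, of which that of *HSPA5* was -0.98 without 6-month replicate 1, and with library size alone neither was called.

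Chaperones known from muscle, vessels or other somatic cells were more often above than below 0 in cattle–yak against 4-year yak. Of 8 with a symbol, 6 had log2 fold changes above 0 and 2 below, with a median of 0.84 beside -0.00 over all genes. Of these, *HSPB7*, *HSPB8* and *HSPA12A* were called higher and *DNAJB4* lower, beside 17.1% and 27.0% of all genes tested. *HSPB7*, a small heat shock protein of muscle, had 78, 104 and 119 counts at 6 months, 0, 3 and 4 at 4 years and 39, 95 and 48 in cattle–yak. The log2 fold change was 3.42 ± 0.83 in cattle–yak against 4-year yak (adjusted p = 0.0065, edgeR) and -5.08 ± 0.66 with age (adjusted p = 0.000121, edgeR). Both rest on these few counts at 4 years. *HSPB7* passed the count filter only through cattle–yak in the first comparison and only through the 6-month yak in the second. Its direction, which also enters the median of the 8, was thereby fixed and lends no support.

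*HSPB8*, which works with *BAG3* in the removal of damaged proteins, had 1.45, 0.72 and 0.69 FPKM at 4 years and 6.93, 8.44 and 3.11 in cattle–yak. It spanned 0.61 to 14.0 FPKM within the 18-month group and 0.87 to 7.33 within the 6-month group, so its spread within a group was wide. *HSPA12A*, an atypical HSP70, had 0.94, 1.45 and 0.92 FPKM at 4 years and 4.47, 5.06 and 3.98 in cattle–yak, or 2.04 ± 0.26 higher on the log2 scale (adjusted p = 0.000197, edgeR), and it fell with age by 2.86 on the log2 scale. *HSPA12B*, its relative in endothelium, fell with age by 1.59 on the log2 scale, and its difference of 0.74 between cattle–yak and 4-year yak was not called. The summed endothelial markers were 21.7 to 31.1 FPKM at 6 months and 11.8 to 14.5 at 4 years, and their part in this was not tested.

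*HSPB6*, a small heat shock protein of smooth muscle, had 40.7, 35.0 and 46.4 FPKM at 4 years and 54.5, 85.9 and 92.8 in cattle–yak. The log2 fold change of 0.94 ± 0.21 was just under the threshold (adjusted p = 0.00394, edgeR) and over it when 1 of 3 libraries was left out in turn, at 1.04 without 4-year yak replicate 1, 1.10 without replicate 3 and 1.13 without cattle–yak replicate 1. *HSPB3* overlapped between all groups. *DNAJB4* had a log2 fold change of -1.10 ± 0.15 in cattle–yak, which was -0.97 or -0.99 without 4-year yak replicate 1 or 3. *DNAJB5* rose with age, by 1.49, and was higher in cattle–yak than in 6-month yak, by 1.95.

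The most translated small heat shock protein had no symbol. This gene (heat shock protein beta-1, ENSBGRG00000008398) had 599, 776 and 593 FPKM at 4 years and 2137, 2220 and 2229 in cattle–yak, or 1.73 ± 0.14 higher on the log2 scale (adjusted p = 1.84e-05, edgeR). The gene for heat shock protein beta-2 had 1.46, 2.71 and 1.59 FPKM at 4 years and 5.85, 5.15 and 4.10 in cattle–yak. Both small heat shock proteins were thus higher in cattle–yak without overlap.

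Besides the mitochondrial *DNAJA3*, the DNAJA genes with a symbol were *DNAJA2* and *DNAJA4*, which work with cytosolic HSP70. Without a symbol, genes described as DNAJA1 (ENSBGRG00000001318 and ENSBGRG00000013178) and DNAJB1 (ENSBGRG00000000944) were not called in cattle–yak against 4-year yak. Their log2 fold changes were 0.26, 0.67 and -0.13. Of 19 tested genes without a symbol, 4 were higher there, 3 lower and 12 not called, beside 17.1% higher and 27.0% lower of all genes. *DNAJA2* (ENSBGRG00000017976) had 161, 136 and 188 FPKM at 4 years and 589, 523 and 480 in cattle–yak. It was above all yak libraries of every age, by a log2 fold change of 1.73 ± 0.16 against 4-year yak (adjusted p = 3.65e-05, edgeR) and 1.47 ± 0.16 against 6-month yak (adjusted p = 0.000152, edgeR). *DNAJA4* (ENSBGRG00000018447) had 15.7, 25.0 and 21.6 FPKM at 6 months, 194, 203 and 214 at 4 years, and 121, 104 and 118 in cattle–yak. It rose with age by 2.78 ± 0.17 (adjusted p = 9.58e-07, edgeR) and lay between both yak groups in cattle–yak, where the log2 fold change of -0.86 ± 0.12 against 4-year yak was not called (adjusted p = 0.000284, edgeR). It was 1.95 higher on the log2 scale than in 6-month yak.

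Other DNAJ genes differed in both directions. *DNAJC5*, the cochaperone of synaptic and secretory vesicles, had 60.6, 61.2 and 48.5 FPKM at 4 years and 165, 164 and 143 in cattle–yak, which was 1.48 ± 0.15 higher on the log2 scale (adjusted p = 4.77e-05, edgeR), opposite to its testis relative *DNAJC5G*. *DNAJC21*, which acts in the maturation of large ribosomal subunits, had 8.79, 10.5 and 10.4 FPKM at 6 months, 87.5, 80.7 and 96.7 at 4 years, and 29.6, 20.8 and 21.1 in cattle–yak. It rose with age by 2.59 ± 0.14 (adjusted p = 6.02e-07, edgeR) and was lower in cattle–yak by -1.88 ± 0.18 (adjusted p = 3.9e-05, edgeR), although it was not on the germ-cell list.

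*DNAJC27*, *DNAJC28* and *HSPBAP1* were also higher at 4 years than in the other groups, at levels of at most 28.3 FPKM. They rose with age by 2.08, 1.38 and 1.15 on the log2 scale and were lower in cattle–yak by -1.43, -1.21 and -1.64. *DNAJC22* was at most 2.14 FPKM in any library and had its lowest values, 0.08, 0.17 and 0.27, in cattle–yak. The log2 fold change of -2.03 ± 0.59 (adjusted p = 0.0156, edgeR) was not called without 4-year yak replicate 1 or 3, and its fall with age was not called when any library but 6-month replicate 2 was left out. *DNAJC12* fell with age by 1.49 on the log2 scale, was lower in cattle–yak than in 6-month yak by -1.17, and neither call held with library size alone.

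The remaining members passed no test in cattle–yak against 4-year yak. *DNAJB6*, *DNAJC6*, *DNAJC24*, *HSPBP1* and *HSPB11* overlapped between these groups. *DNAJC7*, which links HSP70 with HSP90, and *DNAJC13*, of endosomes, were above all 4-year libraries with log2 fold changes of 0.39 and 0.29. *DNAJB2*, *DNAJC18* and *DNAJC2* were below them, with -0.67, -0.43 and -0.24. *DNAJC7* was called higher in cattle–yak than in 6-month yak, by 1.15, as were *DNAJA3* by 1.23, *DNAJC30* by 1.73 and *DNAJC5* by 1.11. *DNAJC22* and *DNAJC15* were lower there, by -3.18 and -2.23, *HSPB7* by -1.66 and *DNAJB4* by -1.02.

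At 18 months no member was called against 6 months, beside 0.0202% of 14874 genes that were higher and 0.0471% that were lower by edgeR. DESeq2 called 2 members higher and 0 lower, beside 6.99% and 5.14% of genes. Against the 4-year yak no member was called either, beside 0.0% higher and 0.0371% lower of 16175 genes. There, DESeq2 called 3 members higher and 3 lower, beside 7.95% and 12.5% of genes.

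Some of these counts of 0 changed with the 18-month library that was left out. At 18 against 6 months, no member was called without replicate 2 or without replicate 3. Of 15071 genes tested without replicate 2, 34 were higher and 42 lower. At 4 years against 18 months, no member was called without replicate 1 or without replicate 3. Without replicate 2, 16 members were higher and 9 were lower at 4 years than at 18 months by edgeR. The higher ones included 7 of the 8 germ-cell chaperones, all but *HSP90AA1*. Of all genes 26.1% were higher and 18.5% lower in this setting, so the members' share lay near the background. Replicate 2 was singled out by its spermatid markers, so the germ-cell calls made without it followed in part from that choice. They are given as a description. The largest of these log2 fold changes that did not rest on a group at or near 0 were 6.98 for *HSPA1L*, 5.46 for *HSPA4L* and 4.89 for *CCT6B*. *HSPB7*, *HSPB8*, *HSPA12A*, *HSPA8*, *HSPD1*, *DNAJC11*, *HSPA9*, *HSPA12B* and *DNAJC5* were lower at 4 years. Without 18-month replicate 1 instead, *DNAJC21*, *DNAJA4*, *CCT6B*, *HSPA1L* and *HSPA4L* were called higher at 18 than at 6 months. No member was called lower, beside 8.7% and 8.08% of all genes. In this setting *HSPA1L* stood at 160 FPKM in replicate 2 and at 1.49 in replicate 3, *HSPA4L* at 221 and 9.0, and *CCT6B* at 138 and 8.09. These calls lean on replicate 2 and are likewise a description.

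Replicate 2 held at least 2 times the mean FPKM of replicates 1 and 3 for 14 of 62 members, and 2 more had no signal outside it. Of 14356 genes with a mean of at least 1 FPKM at this age, 23.1% were at least 2 times higher in it and 5.20% at most 0.5 times as high. Its *DNAJB7* level was 51.1 FPKM against 0 and 0.09, and its *DNAJB13* level 9.34 against 0 and 0. In replicates 1 and 3 *HSPA2* was 58.8 and 29.6 FPKM, above all 6-month libraries, and *HSPA1L* was 1.35 and 1.49, also above them. On the FPKM scale, *HSPA2* was the higher of both genes in each of these libraries.

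Of 43 cochaperones, heat shock factors and other folding proteins listed as their partners, 40 had a symbol. In cattle–yak against 4-year yak 5 were higher and 9 lower, beside 17.1% and 27.0% of all genes. Their median log2 fold change was 0.28, beside -0.00. The 3 lowest were *PDILT*, *CALR3* and *HSF5*, at -9.88, -5.81 and -3.90. *PDILT*, with 126, 25 and 3 counts in cattle–yak, passed the count filter only through the 4-year yak, which fixed its direction. *PDILT* and *CALR3* are testis proteins of the endoplasmic reticulum that fold sperm surface proteins, and *HSF5* is a heat shock factor of meiotic germ cells. The 3 highest were *CRYAB*, a small heat shock protein, *FKBP5*, a cochaperone of HSP90 in steroid receptors, and *UNC45A*, a chaperone of myosin, at 2.07, 1.99 and 1.43.

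*CALR3* had 2796, 2416 and 2296 FPKM at 4 years and 67.6, 31.6 and 32.3 in cattle–yak. *CALR*, its general counterpart, had 5807, 6978 and 6440 and 6026, 6745 and 6675 FPKM, with overlap. The difference of *CALR* was 0.03 ± 0.13 on the log2 scale (adjusted p = 0.867, edgeR), whereas *HSPA4*, the general copy beside *HSPA4L*, passed the test. *HSF1*, the main heat shock factor, overlapped between cattle–yak and 4-year yak, differing by 0.22 ± 0.14 on the log2 scale (adjusted p = 0.202, edgeR), and *HSF2* had 0.83 ± 0.16 and was not called.

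With age 11 of these 40 genes rose and 6 fell, beside 31.0% and 24.7% of all genes. *PDILT*, *CALR3* and *HSF5* were the highest, at 12.05, 9.42 and 7.23. Of these, *PDILT* and *HSF5* passed the count filter only through the 4-year yak, which fixed their direction. *SERPINH1*, the collagen chaperone, *CRYAB* and *CANX* were the lowest, at -3.04, -2.07 and -1.29. Cattle–yak against 6-month yak, where 18.1% of all genes were higher and 19.7% lower, gave 11 higher, led by *CALR3*, *HSF5* and *FKBP6*, a cochaperone of meiotic germ cells, at 3.62, 3.35 and 3.13, and 3 lower, *SERPINH1*, *SIL1* and *BAG2*, at -2.05, -1.39 and -1.24.

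In the deposited annotation 23 members carried the term unfolded protein binding. Of these 23, *CCT2*, *CCT3*, *CCT4*, *CCT5*, *CCT7* and *HSPA1L* also carried the term for binding of sperm to the zona pellucida, which the annotation gives to 18 genes in all. These genes differed widely in cattle–yak. *HSPA1L* was lower by a log2 fold change of -6.40, whereas the 5 CCT subunits ranged from -0.66 to -0.20.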

How the data were processed

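Per the study's methods, the authors used fastp for trimming, Bowtie2 to take out rRNA, BLAST to take out further small RNA, and STAR to place the ribosome footprints on the yak genome. The authors obtained the expected count of each gene with RSEM and deposited it as a whole number without normalization. The deposited FPKM divides these counts by gene length and library total. Columns of the authors' own comparisons hold fold changes, p-values and FDR and were not used, nor were tables of group means.

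Members were found by symbol. The members and lists were chosen with earlier results of these data known. Named were every listed member, up to 5 called members at each end of the log2 fold changes per comparison, the 10 most translated members, untested members and, of partner genes, 3 at each end. The 6 libraries of each of 5 comparisons went through filterByExpr and TMM scaling and then edgeR 4.0.16 (quasi-likelihood, R 4.3.3) with Benjamini-Hochberg adjustment over all genes tested. The SE was taken as the log2 fold change over the square root of F. In data simulated for cattle–yak against 4-year yak, checked before use, edgeR recovered all genes changed 4-fold. The genes changed there were well counted and all had the same fixed spread. This check therefore does not cover genes with few counts, and recovery of 2-fold changes is not given here. Alternatives were DESeq2, library size alone, RLE, no filter, all 12 libraries, a replicate block, leaving out single libraries, and limma with FPKM plus a pseudocount of 1 or 0.1 on the log2 scale. The design has 1 library per animal, and p-values measure the spread between these libraries. Counts of the same group differed beyond counting noise (chi-square over its degrees of freedom, 26.4 to 336). Gene names of neighbours come from RefSeq (assembly Bosgru_T2T1.0), in which 60 of the 62 symbols matched. No positions or sequences were used.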

Additional observations from a re-analysis of the deposited data

How the results depend on the processing

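In cattle–yak against 4-year yak the counts of 13 members higher and 16 lower stayed within 1.5 times under every alternative, and no named member reversed. *HSPB8* was lost with all 12 libraries and *DNAJC22* with limma on log2(FPKM + 1). The single somatic chaperone called lower ranged from 0 to 1 with a library left out. Against 6-month yak, scaling decided the counts. In 4-year yak, members called lower were 4 with library size alone and 2 with either limma scale, which also gave 2 somatic chaperones lower. In cattle–yak against 6-month yak, members higher were 23, 21 and 22 and lower 2, 1 and 3 with library size alone, limma on log2(FPKM + 1) and on log2(FPKM + 0.1). Somatic chaperones there were 2 higher with library size alone, and lower in 1 case with DESeq2, RLE, all 12 libraries and limma on log2(FPKM + 0.1), in 0 with the other scalings, and in 0 to 3 with a library left out. Germ-cell chaperones there numbered 2 higher with all 12 libraries.

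The comparisons with 18-month yak rested on single libraries. Against 6 months, members higher were 2 with DESeq2, 5 with all 12 libraries and 0 to 5 with a library left out, of which germ-cell chaperones were 1, 4 and 0 to 3. In 4-year against 18-month yak, DESeq2 gave 3 higher and 3 lower and all 12 libraries 6 higher and 3 lower, and both gave 2 somatic chaperones lower. Leaving out a library gave 0 to 16 members higher and 0 to 9 lower, 0 to 7 germ-cell chaperones higher, and 0 to 1 somatic chaperones higher and 0 to 4 lower. The upper ends came without 18-month replicate 2, and in the comparison with 6 months without replicate 1.

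Same-numbered libraries showed no pairing (correlations of their deviations of -0.153 to 0.099). With the replicate block, 13 members were higher and 16 lower in cattle–yak against 4-year yak, 17 and 10 in 4-year against 6-month yak, and 11 and 7 in cattle–yak against 6-month yak. Depth limits *DNAJB7*, *DNAJB13*, *CCT8L2*, *DNAJC5G*, *HSPB7* and *DNAJC22*, whose lower groups held few counts.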
